A study of Mus musculus with 8 samples.

Results

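The effect of desiccating stress (DS) on CD11b+MHCII+ cells of the mouse conjunctiva was described across the genes that were well measured in them. Of the 754 genes on the panel, 291 had a raw barcode count above the negative control limit (the mean + 2 SD of the 8 probes with no target) in at least 1 of the 2 MHCII+ samples, and these 291 genes are the subject here. Cells came from female C57BL/6J mice, listed at 10 weeks of age, that were kept in a non-stressed (NS) environment or put under DS for 5 days (DS5), with scopolamine in the drinking water to suppress tear secretion and a fan to create an air draft. All 8 samples of the series were CD11b+ cells sorted from the conjunctiva and pooled from 20 mice, and every group was 1 pool. Whether the 4 populations of a condition came from the same mice is not stated, so they may share them. The other 6 pools were MHCII-CD64+ cells with high, intermediate and low Ly6C (Ly6C-high, Ly6C-inter and Ly6C-low) from both conditions. The MHCII+ gate did not use CD64, so it could hold macrophages, monocyte-derived cells and dendritic cells.

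Macrophages and dendritic cells that carry MHC class II present peptides to CD4+ T cells, and on the ocular surface they stand between the tear film and the draining lymph node. Blood monocytes enter the tissue along CCR2 ligands and can mature there into macrophages or antigen presenting cells. Resident macrophages are known for complement C1q, scavenger receptors and uptake of dying cells through MERTK, while cells exposed to microbial products or type 2 cytokines take on programs often called classical (M1) and alternative (M2) activation.

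With 1 pool per group, no test between conditions was possible and no p-value is given. The counts of DS5 and NS were scaled to equal totals over the 754 genes, and the log2 ratio of DS5 over NS is given with the exact (Clopper-Pearson) 95% interval of the count ratio. This interval covers counting error alone, and it says nothing of the spread between mice or between pools. It is called here above 0 or below 0 when it does not include 0. For genes not chosen by their counts, at most 2.5% on each side would lie there by counting error if no level differed. Fewer cells in a pool and less RNA per cell cannot be told apart.

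The MHCII+ samples were the deepest of the series, with totals of 39677 counts in NS and 30335 in DS5 against 2728 to 14201 in the other 6 pools. Positive control probes summed to 37560 and 38431 counts, while the 8 negative control probes summed to 34 counts in NS and 47 in DS5, a scaled log2 ratio of 0.85 (0.19 to 1.54). The limits were 11.2 counts in NS and 15.3 in DS5. All 291 genes passed the limit in NS, 213 passed it in both samples, 78 in NS alone and 0 in DS5 alone. A gene of the 78 had to have a count of at most 15 in DS5, so its direction is partly set by the selection, and counts are given for the 213 genes as well. At the edge, the 11 genes with 12 counts in NS had 3 to 13 counts in DS5 (median 10), and the 13 genes left out with 11 counts in NS had 2 to 15 (median 6).

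The sort label was checked against its markers. H2-Aa, an MHC class II chain, had 3419 counts in NS and 2635 in DS5 MHCII+ cells and 12 to 22 in the 6 MHCII- pools. Of 6 macrophage markers, all but Mertk were above the limit in both samples. Adgre1 (F4/80) had 96 and 74 counts, Csf1r had 118 and 86, Cd68 had 88 and 71, Fcgr1 had 33 and 22, and Mrc1 had 186 and 151. Mertk had 15 and 1 and passed the limit in NS alone. The dendritic cell marker Itgax (CD11c) had 12 and 8 counts and Ccr7 had 15 and 12, both above the limit in NS alone. Flt3 stayed under the limit in both samples at 5 and 7. Of the wider dendritic cell list, 8 of 12 genes on the panel were well measured, and 4 passed the limit in both samples. These were Cd83 (267 and 218 counts), Irf4 (34 and 34), Ccl22 (27 and 26) and Ccl17 (22 and 24). All but Cd83 are also in the list of alternative activation. None of the 10 neutrophil, 13 mast cell and eosinophil, 4 lymphocyte and 13 epithelial, endothelial and stromal markers on the panel passed the limit, and the highest count among them was 7. The DS5 Ly6C-inter pool stood apart, with 583 counts of Ly6c1 against 16 in the DS5 Ly6C-high pool, and it is used below only for values side by side.

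Most genes kept their share of the total between the conditions. The median log2 ratio of the 291 genes was -0.01 (quartiles -0.35 and 0.29), with 143 genes higher and 148 lower, and 274 lay within 2-fold. Only 1 gene, Mmp12 (macrophage elastase), was more than 2-fold higher in DS5 (0.344% of the 291), while 16 genes were more than 2-fold lower (5.50%), and 15 of the 16 were under the limit in DS5. Over all 754 genes, most of them at background level, 12.9% were past 2-fold upward and 11.8% downward. Past a log2 ratio of 1.5 there were 1 higher gene (0.344%) and 7 lower genes (2.41%) of the 291, against 5.97% and 5.04% of all genes. Among the 213 genes above the limit in both samples, Mmp12 was the only gene past 2-fold upward (0.469%) and Ccl24, an eosinophil-attracting chemokine, the only gene past it downward (0.469%), with a median log2 ratio of 0.08. The interval was above 0 for 14 genes (4.81% of the 291) and below 0 for 18 genes (6.19%), where all 754 genes gave 2.39% on each side. All 14 higher genes, and 12 of the 18 lower ones, passed the limit in both conditions (6.57% and 5.63% of the 213). For the 62 genes with a summed count of at least 200, every ratio was within 2-fold, and the interval was above 0 for 9 and below 0 for 6. With the confidence level adjusted for 291 genes, 4 intervals did not include 0, those of Mmp12 and Cxcl2 (higher, 0.687%) and of Retnla and Arg1 (lower, 0.687%), of which Arg1 passed the limit in NS alone.

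The split between higher and lower genes depended on the scaling. Without scaling, or with scaling to the positive controls, all log2 ratios shifted by -0.39 or -0.38, and 1 gene was then above 0 and 85 or 84 below 0. Scaling to the internal reference genes gave 7 above and 25 below, and scaling to Ppia and Rpl19 gave 5 above and 42 below. Of the 14 higher genes, Mmp12 alone kept its interval above 0 in each of 6 other scalings. All but 1 of these scalings shift every ratio down and the other shifts it up by 0.01, so they put the lower genes to no comparable trial. Levels below are therefore shares of the panel total. Of each pair of counts the first is NS and the second DS5, and a ratio, in words or in brackets, is the log2 ratio unless it is called a fold.

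**Figure D1:**
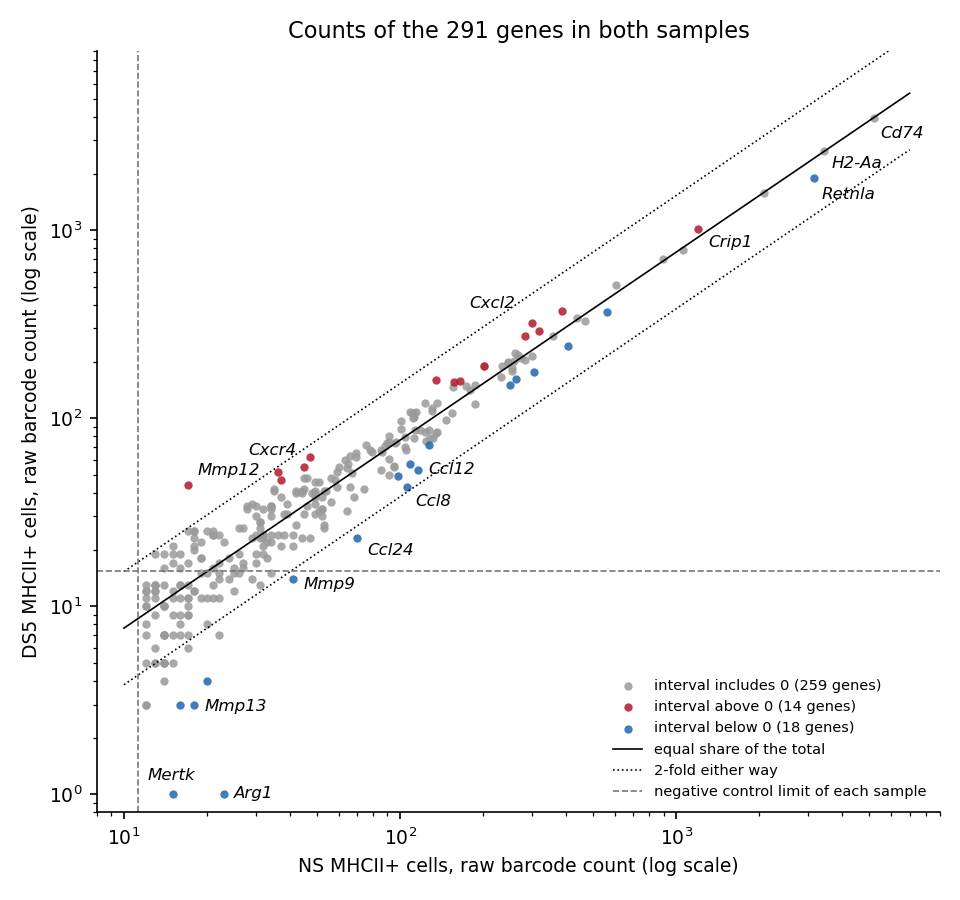
Raw counts of the 291 genes in NS MHCII+ cells (x, log scale) and DS5 MHCII+ cells (y, log scale), 1 point per gene and 1 pool per axis; the solid line marks an equal share of the total, dotted lines a 2-fold difference and dashed lines the negative control limits (11.2 and 15.3 counts). Points follow the solid line from Cd74 down to about 100 counts, Mmp12 lies above the upper dotted line, and Arg1 and Mertk lie at a count of 1 in DS5; the intervals of the red points above 0, other than Mmp12, include or pass below 0 without scaling.

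CC chemokines attract monocytes, eosinophils and lymphocytes, and of all function lists theirs held the most genes by number with an interval below 0, with 4 below and none above. Of 21 on the panel 11 were well measured, and their median log2 ratio was -0.22 beside -0.01 for all 291 genes (0.33 over all 21, when the poorly measured ones are added). By share, 4 of 11 below 0 was close to 3 of 8 in the complement list, where 6.19% of all 291 genes had an interval below 0. Ccl24 (eotaxin-2) had 70 counts in NS and 23 in DS5, a log2 ratio of -1.22 (-1.97 to -0.52). Ccl8 (MCP-2) had 106 and 43 counts, for a log2 ratio of -0.91 (-1.46 to -0.39). Both stayed above the limit in DS5. Ccl12 (MCP-5), a mouse ligand of CCR2, had 116 and 53 counts and thus a log2 ratio of -0.74 (-1.24 to -0.26). Ccl2 (MCP-1), the main CCR2 ligand, had 562 and 369 counts, a smaller difference of -0.22 (-0.41 to -0.03). Ccl7, another monocyte chemoattractant protein that acts through CCR2, had 124 and 76 counts, with an interval from -0.75 to 0.10. Summed, Ccl2, Ccl7 and Ccl12 made up 2.02% of the NS total and 1.64% of the DS5 total, a log2 ratio of -0.30 (-0.46 to -0.14).

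Ccl8 and Ccl12 lie side by side in the CC chemokine cluster of chromosome 11, and their promoters are shown because both genes were lower in DS5. They are the 250 bases before the start site from RefSeq (GRCm38.p6, + strand, 5′ to 3′), at chr11:82114935-82115184 for Ccl8 and chr11:82101595-82101844 for Ccl12, with the TATA box letters TATAAA in capitals.
Ccl8: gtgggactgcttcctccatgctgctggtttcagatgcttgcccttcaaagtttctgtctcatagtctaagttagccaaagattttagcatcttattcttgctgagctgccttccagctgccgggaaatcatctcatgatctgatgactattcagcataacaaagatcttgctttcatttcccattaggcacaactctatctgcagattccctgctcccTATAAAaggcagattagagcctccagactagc
Ccl12: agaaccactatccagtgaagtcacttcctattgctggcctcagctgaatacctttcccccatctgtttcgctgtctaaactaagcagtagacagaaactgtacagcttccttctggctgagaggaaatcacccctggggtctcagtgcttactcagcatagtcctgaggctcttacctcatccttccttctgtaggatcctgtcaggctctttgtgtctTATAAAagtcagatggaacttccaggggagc
The TATA box letters stood at -32 to -27 from the Ccl8 start site and at -31 to -26 from that of Ccl12, and they occur in 12.4% of 32851 promoter windows of the same length. The promoters were identical at 161 of 217 aligned bases, or 56.9% of the alignment with its gaps, against 46.9% between Ccl8 and Cxcl2 and 49.1% between Ccl12 and Cxcl2. None of the letters searched for AP-1 (TGANTCA), STAT proteins (TTCNNNGAA) or NF-kB lay in either window, on either strand.

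The intervals of the remaining CC chemokines included 0, with ratios in both directions. Ccl9, with the largest mean count of the list, had 606 and 510 counts, which gave a log2 ratio of 0.14 (-0.03 to 0.31), and Ccl6 had 112 and 102, a ratio of 0.25 (-0.15 to 0.65). Ccl17 and Ccl22, ligands of CCR4 made by dendritic cells and alternatively activated macrophages, had 22 and 24 counts and 27 and 26 counts. Ccl3 had 52 and 33 counts (-0.27) and Ccl4 had 18 and 12 (-0.20). Probe sequences were not used here, so the specificity of each probe among these close relatives was not tested.

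Of the 13 CXC and other chemokines, 6 were well measured. Cxcl2 (MIP-2), which attracts neutrophils, had 300 counts in NS and 321 in DS5, a log2 ratio of 0.48 (0.25 to 0.72) at equal totals and of 0.10 without scaling. Its relative Cxcl1 had 54 and 41 counts, for a log2 ratio of -0.01. The interferon-induced chemokine Cxcl10 had 35 and 42 counts and thus a log2 ratio of 0.65 whose interval included 0, and Cxcl9 had 17 and 13. Pf4 (platelet factor 4), made by resident macrophages as well as platelets, had 91 and 50 counts, a ratio of -0.48 whose interval also included 0. The Cxcl2 promoter, chr5:90903649-90903898 (GRCm38.p6, + strand), is shown because it held an NF-kB motif that the Ccl8 and Ccl12 windows did not, in capitals.
Cxcl2: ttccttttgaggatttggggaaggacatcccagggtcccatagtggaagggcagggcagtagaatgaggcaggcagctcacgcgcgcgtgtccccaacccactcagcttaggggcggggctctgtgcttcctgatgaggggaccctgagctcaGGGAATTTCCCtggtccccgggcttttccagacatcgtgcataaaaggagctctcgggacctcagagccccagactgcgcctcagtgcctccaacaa
Matches to the NF-kB motif overlapped at -97 to -88 and -96 to -87 from the start site, and 7.25% of all windows held a match. A match describes letters, not binding. Because this promoter was chosen for its motif, the contrast with Ccl8 and Ccl12 follows from the choice. Whether motifs go with the direction of the ratios was not tested.

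Among 18 chemokine receptors, 6 were well measured, and 5 of them had a higher share in DS5 at equal totals (median 0.27), a direction that turned to -0.12 without scaling. Cxcr4, the CXCL12 receptor that holds leukocytes in bone marrow and tissue niches, had 36 and 52 counts, which gave a log2 ratio of 0.92 (0.28 to 1.57) and of 0.53 without scaling. Ccr2, the receptor of Ccl2 and Ccl12, had 202 and 190 counts, for a log2 ratio of 0.30 (0.01 to 0.59) that turned to -0.09 without scaling.

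Matrix metalloproteinases, which cut matrix proteins and cytokines, differed in both directions, with 1 interval above 0 and 2 below. Mmp12, the macrophage elastase, had 17 counts in NS and 44 in DS5, a log2 ratio of 1.76 (0.92 to 2.66) or 3.39-fold. It was the only gene whose interval stayed above 0 in all 13 alternative settings. The filters of genes and the raising of counts to the limits left its ratio as it was, so they put it to no trial. Among the other settings its ratio was lowest without scaling, at 1.37 (0.54 to 2.27). Mmp9 (gelatinase B) had 41 and 14 counts and thus a log2 ratio of -1.16 (-2.15 to -0.26), and its DS5 count was just under the limit. Mmp13 (collagenase 3) had 18 and 3 counts, a ratio of -2.20 (-4.60 to -0.42), with a DS5 count at the level of the negative controls, whose mean was 5.88. With counts raised to the limits its ratio turned to 0.22. Both Mmp9 and Mmp13 passed the limit in NS alone, so their direction is partly set by the selection. Of 16 genes of the group on the panel 8 were well measured, with a median of -0.10 (0.18 over the 6 above the limit in both samples), and the other members had intervals that included 0. Fn1 (fibronectin) had 246 and 199 counts (0.08), Plaur (urokinase receptor) 114 and 108 (0.31), and Adam8 51 and 32 (-0.29).

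RefSeq lists more than 1 start site for Mmp12, and the 250 bases before 2 of them are printed because this gene differed the most upward: chr9:7344147-7344396 and chr9:7347124-7347373 (GRCm38.p6, + strand), with a match to the NF-kB motif in capitals in the first and the AP-1 letters TGANTCA in capitals in the second.
Mmp12 upstream start: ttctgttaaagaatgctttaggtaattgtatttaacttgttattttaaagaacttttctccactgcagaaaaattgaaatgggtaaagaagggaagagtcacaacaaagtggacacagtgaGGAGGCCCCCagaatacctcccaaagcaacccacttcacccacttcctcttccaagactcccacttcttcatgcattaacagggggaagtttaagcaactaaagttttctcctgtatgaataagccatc
Mmp12 downstream start: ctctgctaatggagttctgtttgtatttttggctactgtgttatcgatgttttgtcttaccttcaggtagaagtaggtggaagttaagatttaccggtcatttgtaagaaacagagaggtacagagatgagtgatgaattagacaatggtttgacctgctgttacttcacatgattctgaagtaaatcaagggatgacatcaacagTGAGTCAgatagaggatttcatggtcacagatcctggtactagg
The NF-kB match lay at -129 to -120 from its start site and the AP-1 match at -44 to -38, and AP-1 letters occur in 6.75% of all windows. Which start site the MHCII+ cells used was not measured. STAT letters TTCNNNGAA, in 7.02% of all windows, were in none of the printed promoters.

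Genes of alternative activation were lower in part. Of 22 on the panel 14 were well measured, with a median log2 ratio of -0.22 (0.06 over the 11 above the limit in both samples), 3 intervals below 0 and none above. Retnla (RELM-alpha), a secreted protein of type 2 activated macrophages, was among the most counted genes in both samples with 3144 and 1887 counts. Its level in DS5 was 0.785-fold that of NS, or -0.35 on the log2 scale (-0.43 to -0.27), and stayed below 0 in every alternative. The filters and the raised limits left this ratio as it was, and the scalings are no comparable trial of a lower gene. Arg1 (arginase 1), which consumes arginine, had 23 counts in NS and 1 in DS5, a log2 ratio of -4.14 (-9.50 to -1.51). The smallest value in the table is 1, so this count may stand for fewer, and with counts raised to the negative control limit the Arg1 ratio was -0.14 and its interval included 0. Ccl24, the third with an interval below 0, is given above. The other 11 genes of the list had intervals that included 0, with ratios from -0.99 (Chil3) to 0.51 (Ccl17). Mrc1 (CD206, the mannose receptor) had 186 and 151 counts, a ratio of 0.09 (-0.23 to 0.40), and Cd163 (a haemoglobin scavenger receptor) had 112 and 78, a ratio of -0.13. Chil3 (Ym1) had 13 and 5 counts, too few to separate.

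Classical activation genes had 12 of 20 on the panel well measured, with a median log2 ratio of 0.16 that became -0.23 without scaling, 2 intervals above 0 and none below. Il6, the acute phase cytokine, had 47 and 62 counts, which gave a log2 ratio of 0.79 (0.22 to 1.37) and of 0.40 without scaling. Il1b had 319 and 290 counts, for a log2 ratio of 0.25 (0.02 to 0.48) that turned to -0.14 without scaling. Tnf had 28 and 33 counts and a ratio of 0.62 whose interval included 0. Ptgs2 (cyclooxygenase 2) had 60 and 55 (0.26), while Il1a (27 and 17, -0.28) pointed the other way, again with an interval that included 0.

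Around Il1b, 7 of 14 IL-1 family and inflammasome genes were well measured, with a median of -0.03. Its antagonist Il1rn had 109 and 108 counts and thus a log2 ratio of 0.37 (-0.02 to 0.77), the inflammasome sensor Nlrp3 had 49 and 41 (0.13) and Casp1, the protease that matures IL-1 beta, had 14 and 10 (-0.10). In the TNF group, with 8 of 20 measured, Birc3 (cIAP2), a survival factor downstream of TNF receptors, had 37 and 47 counts, which gave a log2 ratio of 0.73 (0.08 to 1.39). Tnfrsf1a, the TNF receptor found on most cells, had 98 and 49 counts, a ratio of -0.61 (-1.14 to -0.10), whereas Tnfrsf1b, the receptor of leukocytes, had 12 and 13 (0.50), with an interval that included 0. Of the 5 NF-kB genes measured, 4 were higher at equal totals (median 0.32, or -0.07 without scaling), led by Nfkbie with 18 and 25 counts (0.86), and none had an interval that left 0 out.

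**Figure D2:**
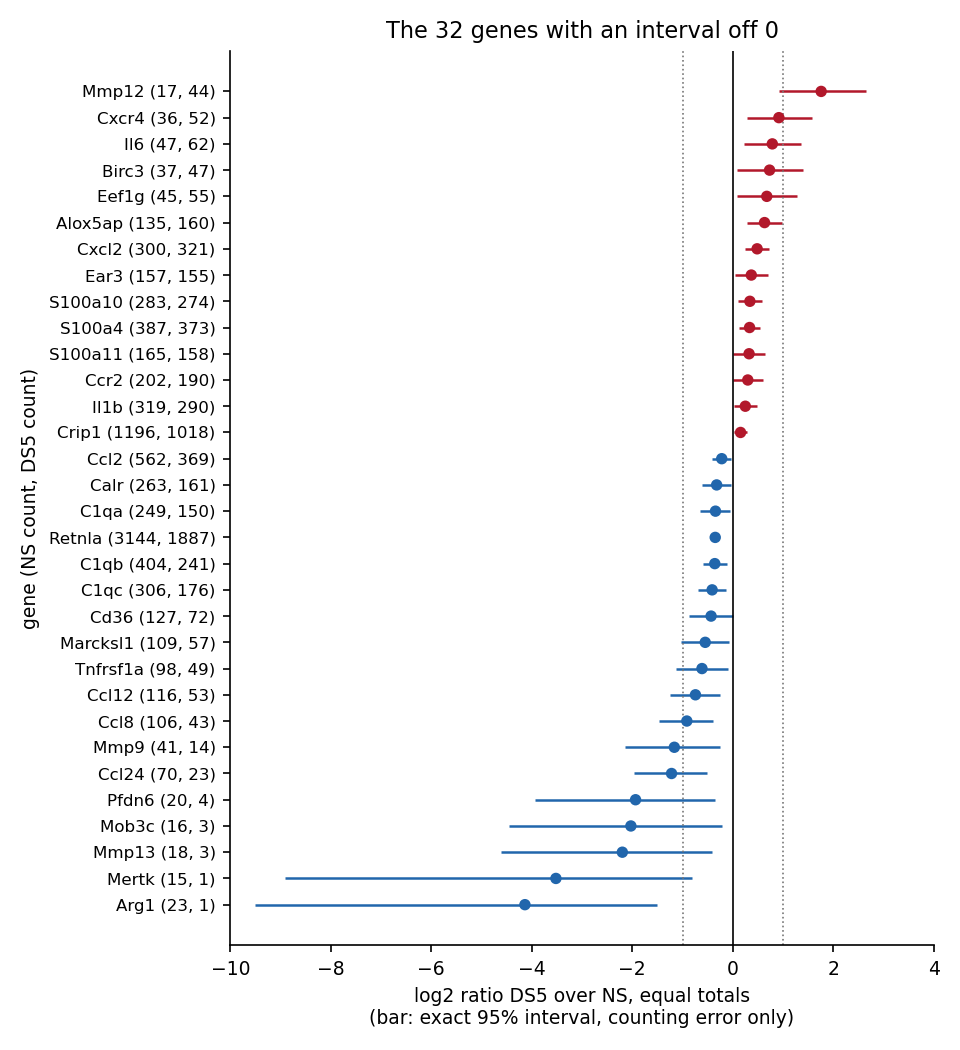
The 32 genes whose exact 95% interval of the log2 ratio DS5 over NS (x, counts scaled to equal totals) did not include 0, ordered by ratio, with NS and DS5 counts beside each name; points are ratios, bars are intervals of counting error alone in 1 pool per condition, and dotted lines mark 2-fold. Mmp12 alone lies past the right dotted line and the bars grow towards Arg1 and Mertk, each at a count of 1 in DS5; raw counts shift all points by -0.39, which makes the ratios of 7 genes negative, namely Ear3, S100a10, S100a4, S100a11, Ccr2, Il1b and Crip1.

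All 8 genes of the complement list that the panel held, Itgax among them, were well measured. Their median log2 ratio was -0.27, with 3 intervals below 0 and none above. Hc (complement C5), with 1 and 4 counts, was on the panel but not in the list. The 3 were the chains of C1q, the recognition molecule of the classical pathway that resident macrophages secrete. C1qa had 249 and 150 counts (log2 ratio -0.34, -0.65 to -0.05). C1qb had 404 and 241, a ratio of -0.36 (-0.59 to -0.12), and C1qc had 306 and 176, a ratio of -0.41 (-0.69 to -0.14). Together they made up 2.42% of the NS total and 1.87% of the DS5 total, a log2 ratio of the sums of -0.37 (-0.52 to -0.22). Other complement genes were not all lower: the anaphylatoxin receptors C3ar1 (130 and 109 counts, 0.13) and C5ar1 (63 and 60, 0.32) had positive ratios, C4a had 47 and 23 (-0.64) and C3 had 18 and 12 (-0.20), with intervals that included 0.

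Antigen presentation by MHC class II was nearly the same share of the total in both samples. Both were sorted for MHC class II on the cells, so a like share may be partly set by the gate. All 9 genes of the list that the panel held were well measured, and no interval left 0 out. Cd74, the invariant chain, had 5212 and 3967 counts and thus a log2 ratio of -0.01 (-0.07 to 0.05). H2-Aa had a ratio of 0.01 (-0.06 to 0.09), and H2-Ab1, with 2075 and 1574 counts, of -0.01 (-0.11 to 0.08). H2-Eb1 had 1054 and 787 counts (-0.03). The 3 chains and Cd74 summed to 29.6% of the NS total and 29.5% of the DS5 total, a log2 ratio of -0.00 (-0.04 to 0.04), so this family weighs heavily in the total itself. When it was left out of the total, all ratios shifted by -0.01. Without scaling the median of the list was -0.46. The peptide loading genes H2-DMa (186 and 119 counts, -0.26) and H2-DMb1 (104 and 70, -0.18) and the protease Ctss (283 and 205, -0.08) had intervals that included 0, and the near-identical H2-DMb1 and H2-DMb2 may share signal.

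MHC class I and antigen processing had 10 of 12 genes measured, a median of -0.33 (-0.19 over the 6 above the limit in both samples) and no interval that left 0 out. H2-D1 had 438 and 339 counts (0.02), H2-K1 301 and 213 (-0.11), the immunoproteasome subunit Psmb8 68 and 38 (-0.45) and the peptide transporter Tap2 13 and 5 (-0.99). Costimulation and checkpoint genes had 10 of 17 measured and a median of 0.07. Cd83, a maturation marker, had 267 and 218 counts, which gave a log2 ratio of 0.09 (-0.17 to 0.36), Cd86 had 56 and 36 (-0.25), Cd80 had 29 and 23 (0.05), and Cd40 had 19 and 22 (0.60). Dendritic cell markers, 8 of 12, had a median of 0.08 and no interval off 0.

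Tissue macrophage genes, 12 of 16, had a median of -0.10 and 1 interval below 0, that of Mertk. This receptor for uptake of apoptotic cells had 15 counts in NS and 1 in DS5, a log2 ratio of -3.52 (-8.92 to -0.82). With counts raised to the limits the ratio turned to 0.48 by construction. Identity genes with more counts showed no such difference: Apoe had 469 and 329 counts, a ratio of -0.12 (-0.33 to 0.08), Cd14 had 234 and 189 (0.08), Adgre1 had a ratio of 0.01 and Csf1r of -0.07. Timd4 (TIM-4), a receptor of phosphatidylserine on long-lived resident macrophages, had 31 and 13 counts, a ratio of -0.87 whose interval included 0.

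Scavenger and phagocytic receptors, 8 of 13, had a median of -0.27 (-0.03 over the 4 above the limit in both samples) and 2 intervals below 0, Mertk and Cd36. Cd36, a receptor for oxidized lipids, had 127 and 72 counts, for a log2 ratio of -0.43 (-0.87 to -0.00), at the border. Fc receptors, 5 of 7, were near equality apart from Fcgr4 with 15 and 5 counts: the adaptor Tyrobp had 254 and 184 (-0.08), Fcgr2b 232 and 165 (-0.10) and Fcgr3 86 and 66 (0.01). Pattern recognition receptors had 6 of 28 measured, with Tlr2 at 35 and 41 counts (0.62) and Clec7a (dectin-1) at 58 and 47 (0.08), and no interval that left 0 out.

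The S100 proteins and Crip1 had 5 of 8 genes measured, all 5 higher at equal totals (median 0.33) and 4 with an interval above 0, but without scaling all 4 had a negative ratio, with intervals that included 0 except that of Crip1, and the median was -0.06. S100a4, a calcium-binding protein of motile and monocyte-derived cells, had 387 and 373 counts and thus a log2 ratio of 0.33 (0.13 to 0.54) and of -0.05 unscaled. S100a10, the partner of annexin A2, had 283 and 274 (0.34, 0.10 to 0.59, or -0.05 unscaled), and S100a11 had 165 and 158 (0.32, 0.00 to 0.65, or -0.06). Their raw counts were thus almost the same in both samples while the total was lower in DS5. Crip1, a small LIM domain protein, had 1196 and 1018 counts, which gave a log2 ratio of 0.15 (0.03 to 0.28) or -0.23 unscaled. Anxa1 (annexin A1) had 75 and 72 counts (0.33), with an interval that included 0. The 3 S100 genes together were 2.10% of the NS total and 2.65% of the DS5 total.

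**Figure D3:**
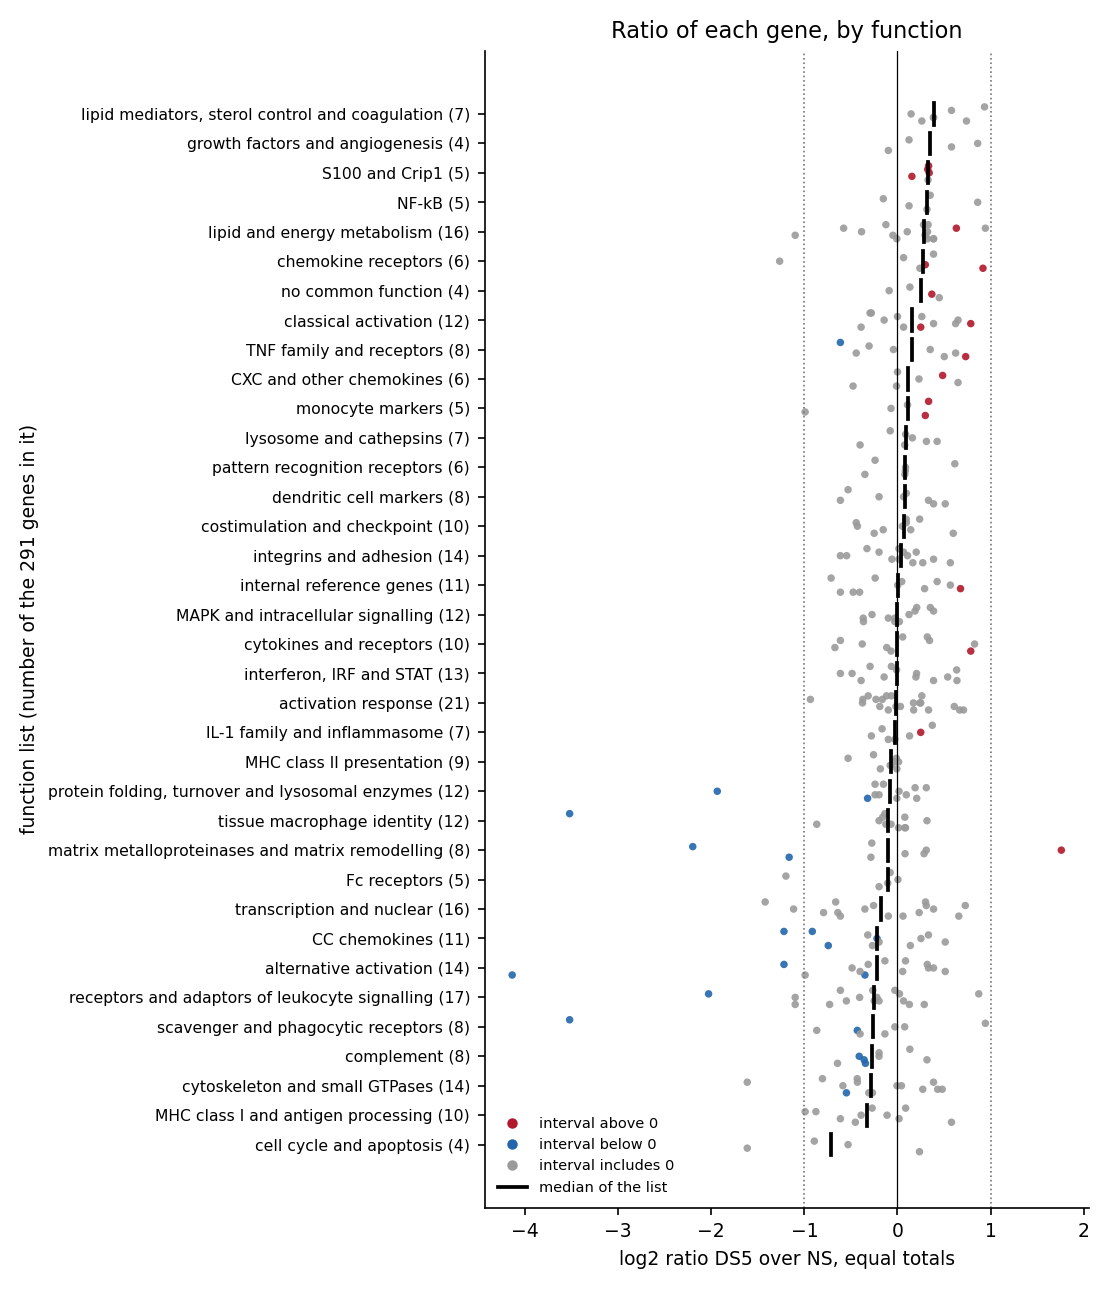
Log2 ratio DS5 over NS (x, counts scaled to equal totals) of each of the 291 genes by function list (y, number of genes in brackets), 1 point per gene and 1 pool per condition; black bars are list medians, red and blue points have an exact 95% interval above or below 0, and dotted lines mark 2-fold. Most points lie between the dotted lines; the median of S100 and Crip1 (0.33) is negative when counts are not scaled, and every other median shifts by the same -0.39, and points far to the left are genes with few counts in DS5.

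Lipid mediator genes held 1 interval above 0. Alox5ap (FLAP), which hands arachidonic acid to 5-lipoxygenase, had 135 counts in NS and 160 in DS5, a log2 ratio of 0.63 (0.29 to 0.97) and of 0.25 without scaling. Alox5, the lipoxygenase itself, had 23 and 22 counts (0.32) and Lta4h, which makes leukotriene B4, 17 and 17 (0.39). The sum of these 3 genes had a log2 ratio of 0.57 (0.27 to 0.87) at equal totals, carried mostly by Alox5ap. Without scaling the shift of -0.39 applies to this sum too, and its interval would then include 0. Hpgds, the haematopoietic prostaglandin D synthase, had 13 and 11 counts (0.15), and Hpgd, which degrades prostaglandins, had 41 and 24 (-0.39). The wider list of lipid and energy metabolism, 16 of 22, had a median of 0.29, or -0.10 without scaling, with Alox5ap the 1 gene whose interval left 0 out. Lpl (lipoprotein lipase) had 101 and 97 counts (0.33) and Cybb, the NADPH oxidase subunit, 112 and 107 (0.32). A class of 7 genes of lipid mediators, sterol control and coagulation was formed from names, but after the counts had been seen. All 7 were higher at equal totals (median 0.39, or 0.00 unscaled), from Hpgds at 0.15 to Pros1 (protein S) with 13 and 19 counts at 0.93. No interval left 0 out, and Thbd, Sgpp1 and Hpgds passed the limit in NS alone. The shared direction is therefore no independent result.

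The activation response, early genes that many stimuli and tissue handling induce, had 21 of 27 genes measured, with 10 higher and 11 lower, a median of -0.02 and no interval that left 0 out. Dusp1, a phosphatase that switches off MAP kinases, had 898 and 702 counts, for a log2 ratio of 0.03 (-0.11 to 0.18). Atf3 had 275 and 208 (-0.02), Fosb 254 and 179 (-0.12), Jun 132 and 78 (-0.37), Nr4a1 95 and 56 (-0.38) and Cebpb 131 and 113 (0.17). Their sum was 7.07% of the total in both samples. Integrins and adhesion genes, 14 of 23, had a median of 0.04, with Itgam (CD11b, used in the sort) at 91 and 75 counts (0.11), Icam1 at 91 and 80 (0.20) and Itgb1 at 128 and 78 (-0.33). Interferon, IRF and STAT genes, 13 of 26, had a median of -0.01, with Irf1 at 104 and 79 counts (-0.01), Isg15 at 16 and 19 (0.64) and Irf8 at 14 and 7 (-0.61). In neither list did an interval leave 0 out.

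Cytokines and their receptors had 10 of 30 measured, a median of -0.01 and 1 interval above 0, that of Il6. Csf1r, the receptor of the macrophage growth factor, had the most counts. MAPK and intracellular signalling genes, 12 of 19, had a median of -0.00, led in counts by Ptprc (CD45, used in the gate) with 101 and 88 (0.19). Lysosome and cathepsin genes, 7 of 9, had a median of 0.09, with Ctsd (cathepsin D) at 261 and 223 counts (0.16). Growth factors and angiogenesis, 4 of 19, had Hbegf at 18 and 25 counts (0.86) and Areg (amphiregulin) at 49 and 35 (-0.10). The 4 of 13 cell cycle and apoptosis genes had few counts apart from Cdkn1a (p21) with 111 and 100 (0.24), and Top2a, a marker of dividing cells, had 17 and 7. None of these lists other than the cytokines had an interval that left 0 out.

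Monocyte markers, 5 of 7, included 2 genes with an interval above 0 at equal totals, S100a4 and Ccr2 given above, and without scaling both had a negative ratio whose interval included 0. Ly6c1, taken here as a monocyte marker, was under the limit with 6 and 2 counts. It did not follow the Ly6C sort, with 8 and 16 counts in the Ly6C-high pools, so its low count says little of monocytes among MHCII+ cells. The share of 6 macrophage markers was 135 counts per 10000 in NS and 134 in DS5. The part of these markers in the other ratios was not tested.

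The internal reference genes, 11 of 19 measured, had a median of 0.00 at equal totals, but they spread. Rpl19 had 359 and 275 counts (0.00), Ppia had 202 and 189 (0.29), and Eef1g, a translation elongation factor, had 45 and 55, a log2 ratio of 0.68 (0.08 to 1.28). Lower ones were Oaz1 with 105 and 68 counts (-0.24) and Polr2a with 20 and 11 (-0.48), both with intervals that included 0. A gene kept as a reference was thus among the 14 with an interval above 0.

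The 70 genes that no list held were classed by name after the counts had been seen, and 5 of the 32 intervals that left 0 out were theirs. Ear3, an eosinophil-associated ribonuclease that also occurs in macrophages, had 157 and 155 counts and thus a log2 ratio of 0.37 (0.04 to 0.70), or -0.02 without scaling, and its close paralogues may share the probe. Calr (calreticulin), an endoplasmic reticulum chaperone, had 263 and 161 counts, a ratio of -0.32 (-0.61 to -0.03). Marcksl1, an actin-binding substrate of protein kinase C, had 109 and 57, a ratio of -0.55 (-1.04 to -0.07). Pfdn6, a prefoldin subunit, had 20 and 4 counts, and Mob3c had 16 and 3, both under the limit in DS5, and with counts raised to the limits their ratios turned from -1.93 and -2.03 to 0.07 and 0.39. The class of cytoskeleton and small GTPases (14 genes) had a median of -0.29, receptors and adaptors of leukocyte signalling (17) of -0.25, transcription and nuclear genes (16) of -0.18 and protein folding, turnover and lysosomal enzymes (12) of -0.08. Over the genes above the limit in both samples the first remained at -0.29, while the other 3 were at -0.03, 0.27 and 0.01.

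The named genes were set beside the MHCII- pools, which were shallower. Of 35 named genes, 11 were above the limit in at least 1 Ly6C-high pool, 24 in a Ly6C-inter pool and 17 in a Ly6C-low pool. Mmp12 was under the limit in all 6, with 1 to 5 counts. Arg1 had 11 and 1 counts (NS and DS5) in Ly6C-high cells, 9 and 26 in Ly6C-inter cells and 5 and 1 in Ly6C-low cells, and only the 26 passed its limit. Ccl24 had 28 and 20 counts in Ly6C-inter cells, and Ccl8 had 34 and 24. Retnla had 124 and 114 counts in Ly6C-inter cells and 88 and 55 in Ly6C-low cells, and Cxcl2 had 70 and 74 and then 87 and 52. Mmp12, Il6, Birc3, Eef1g and Ear3, 5 of the 14 higher genes, were under the limit in every MHCII- pool.

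**Figure D4:**
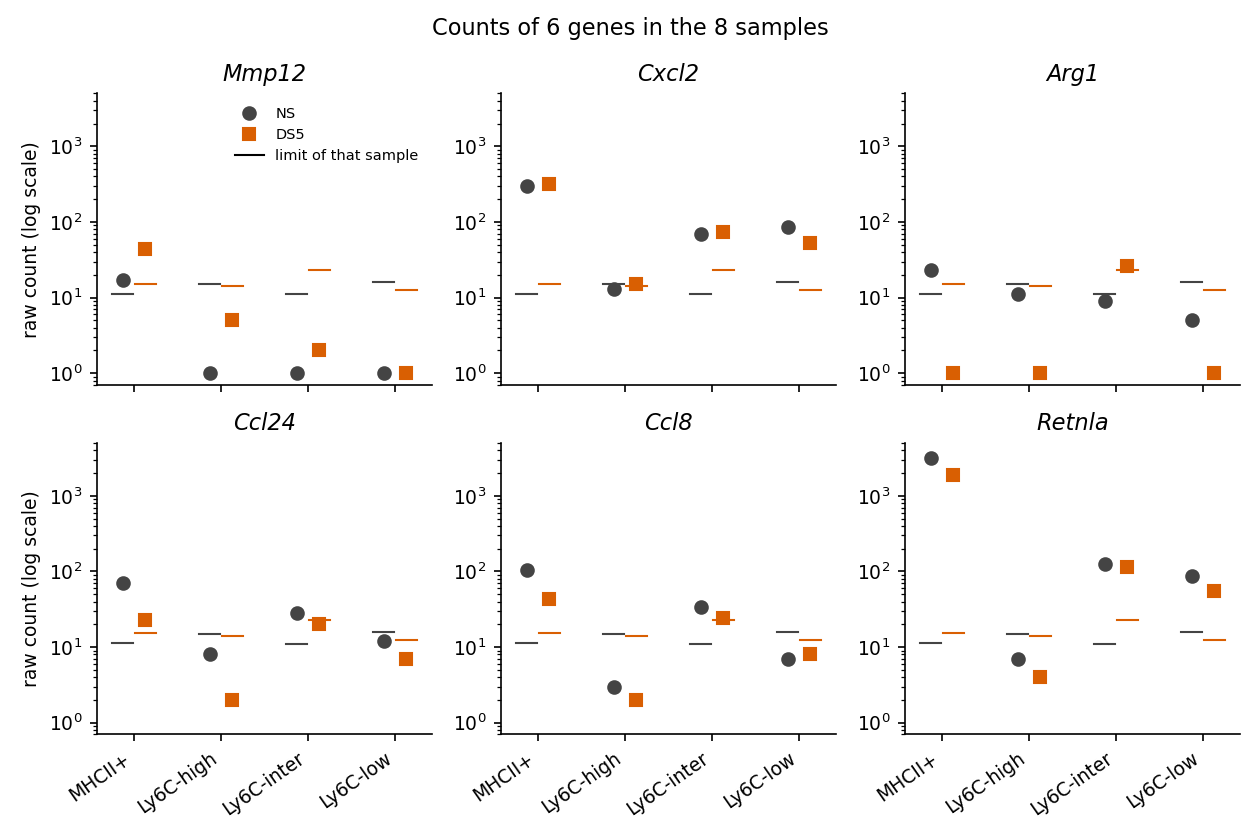
Raw counts (y, log scale) of Mmp12, Cxcl2, Arg1, Ccl24, Ccl8 and Retnla in the 4 sorted populations, NS (circles) and DS5 (squares), 1 pool each and not scaled; short lines are the negative control limits of each pool. Mmp12 lies above the limits in MHCII+ cells alone, and Arg1 lies above them in NS MHCII+ and DS5 Ly6C-inter cells. The MHCII- pools had lower totals, so a gene with few counts can fall under the limit there at an equal share.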

How the data were processed

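Total RNA of sorted CD11b+ cells in 8 pooled samples was hybridized by the authors to NanoString's mouse panel of myeloid innate immunity genes, and fluorescent barcodes were counted without amplification (nCounter). The authors deposited raw counts of 768 probes, without normalization, for 754 genes, 8 negative and 6 positive control probes. The smallest value is 1. A genome build does not apply to these counts. Of the 291 gene names, 288 matched a RefSeq symbol and 2 a synonym (GRCm38.p6), and promoters were read from the same RefSeq tables.

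Genes with a count above the negative control limit (mean + 2 SD) in at least 1 MHCII+ sample were kept. Counts were scaled to equal totals over the 754 genes, and log2 ratios were given exact Clopper-Pearson 95% intervals, 1 gene at a time. With 1 pool per group no test was run. The 34 function lists, the members and the alternatives were chosen with earlier results of these data known. The 70 genes in no list were put in 6 classes from their names, after the counts had been seen. Genes named were Arg1, Ccl24, Ccl8 and Mmp12, the 10 in each direction whose interval limit nearer to 0 was farthest from it, the 5 with the highest mean scaled count, and in each list those with an interval off 0 and the one with the highest mean. Further examples were chosen after their values were seen, and a few genes are not reported here. Motifs were searched on both strands of the 250 bases before each start site. The code was tested on simulated counts. Intervals came from scipy 1.17.1, tables from pandas 2.3.3 with numpy 2.4.6 and figures from matplotlib 3.10.9, under Python 3.11.15.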

Additional observations from a re-analysis of the deposited data

Results flagged for a closer look

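Among the named genes above the negative control limit in an MHCII- population, 6 had an interval that lay on the other side of 0 in an MHCII- population than in MHCII+ cells. The difference between the populations was not tested. In Ly6C-inter cells, at equal totals, the log2 ratio of DS5 over NS was -1.36 (-2.17 to -0.55) for Alox5ap with 29 and 27 counts, -1.18 (-1.67 to -0.68) for Cxcl2 with 70 and 74, -1.55 (-2.07 to -1.05) for Crip1 with 75 and 61, and -2.44 (-3.61 to -1.36) for Il1b with 25 and 11. Calr, below 0 in MHCII+ cells, had 37 and 155 counts there and a ratio of 0.81 (0.29 to 1.37). In Ly6C-low cells S100a11 had 109 and 46 counts and a ratio of -0.73 (-1.26 to -0.22). Ear3, under the limit in Ly6C-inter cells with 7 and 3 counts, was also on the other side there (-2.48, -5.06 to -0.35). Of the 24 named genes above the limit in Ly6C-inter cells, 15 had the same direction as in MHCII+ cells at equal totals, with 11 intervals below 0 in both populations and 2 above 0 in both.

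The DS5 Ly6C-inter pool had a few genes with very high counts, such as S100a11 with 891, which take a share of its total. Scaled instead to the median ratio of the 136 genes above the limit in a Ly6C-inter pool, a setting chosen after seeing the data that shifts all ratios there by 0.86, Alox5ap and Cxcl2 were at -0.50 and -0.32 with intervals that included 0, Crip1 and Il1b at -0.70 and -1.58, and Calr at 1.67. The same scaling over 102 genes put S100a11 in Ly6C-low cells at -0.29, with an interval that included 0.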

How the results depend on the processing

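No paired analysis was possible because each group was 1 pool. At equal totals, 1 gene was past 2-fold upward and 16 downward, 1 and 7 were past a log2 ratio of 1.5, and 14 and 18 had an interval above and below 0. Without scaling, 40 were past 2-fold downward, 0 and 13 past 1.5, and 1 and 85 intervals left 0 out. Positive control scaling gave 32, then 0 and 12, then 1 and 84. Reference gene scaling gave 7 intervals above 0, and Ppia and Rpl19 gave 5 above and 42 below. Subtracting the negative control mean gave 3 and 46 genes past 2-fold, 32 past 1.5 downward and 41 intervals below 0, and raising counts to the limit left 1 gene past 2-fold downward and 0 past 1.5. Genes above the limit in both samples gave 1 past 2-fold and 0 past 1.5 downward, a limit of mean + 3 SD gave 10 past 2-fold downward, and a count of at least 20 gave 5 and, past 1.5, 2. All 754 genes gave 97 and 89 past 2-fold and 45 and 38 past 1.5. At the adjusted confidence, 2 intervals were above and 2 below 0.

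Single genes turned direction under 3 settings. Without scaling, S100a4 was at -0.053, S100a10 at -0.047, Ear3 at -0.018, Crip1 at -0.23, S100a11 at -0.063, Ccr2 at -0.088 and Il1b at -0.14, and with positive control scaling these 7 were at -0.049, -0.042, -0.014, -0.23, -0.058, -0.084 and -0.13. Raised to the limit, Mertk was at 0.48, Mmp13 at 0.22, Pfdn6 at 0.065 and Mob3c at 0.39, since the scaled DS5 limit exceeds these NS counts. Of 110 genes with a summed count under 50, 5 had an interval that left 0 out, all lower, and 1 pool per condition leaves the spread between mice unmeasured.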
